A study of Homo sapiens with 6 samples.

Results

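The 44 genes that encode the alpha chains of human collagens were followed in LX-2 cells after knockdown of ADAMTS12. They were chosen by name, as every gene whose symbol has the form COL, a number, A and a number, and they make up 44 of the 60669 genes in the deposited table. LX-2 is an established human line of activated hepatic stellate cells, which produce the scar matrix of the fibrotic liver. The 2 groups, siCTL and siADAMTS12, are LX-2 cells of the same wild-type genotype in which a negative control siRNA or a single siRNA against ADAMTS12 was transfected with a lipid reagent, and RNA was taken after 48 h. ADAMTS12 is a secreted metalloprotease of the matrix. Each group has 3 libraries, numbered 1 to 3. The labels do not say whether they came from separate cultures, so the p-values reflect only library-to-library spread, which may be technical.

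Collagens are secreted or membrane-bound proteins in which 3 alpha chains wind into a triple helix. The fibrillar types (I, II, III, V, XI, XXIV and XXVII) form the fibres of connective tissue, and types I and III are the main scar collagens of the fibrotic liver. Network types form sheets, such as type IV in basement membranes. FACIT chains, with interrupted helices, sit on the surface of fibrils. Beaded filaments of type VI surround cells, and transmembrane collagens stay anchored in the plasma membrane and can be shed from it.

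Levels are normalized counts in the authors' scaling. Fold changes are siADAMTS12 over siCTL on the log2(value + 1) scale, with the moderated standard error (SE) of limma. A gene was called when its limma p, adjusted by the Benjamini-Hochberg method over all 15637 genes with a mean of at least 10 in the 6 libraries, was below 0.05. The target checked the labels. ADAMTS12 (chromosome 5, 33523535 to 33892192, minus strand, GRCh38) was at 13709, 12235 and 13423 in siCTL and at 4083, 3449 and 3687 in siADAMTS12, so that 28.5% remained (log2 fold change -1.81 ± 0.07 SE, limma adjusted p = 4.81e-08). The siRNA's strands are shown because part of the guide recurs as a match in the collagen transcripts described below. The capitals mark guide positions 2 to 8, the seed that pairs in microRNA-like silencing, and the bases of the sense strand that equal its target. The 19-base target lies at chr5:33637728-33637746.
sense strand: gccaaaguuugGAGGGAAa
guide strand: uUUCCCUCcaaacuuuggc

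The groups differed in column sums and in several marker sums. Column sums ran from 33576945 to 34072515 in siCTL and from 30678468 to 31415206 in siADAMTS12. These are sums after the authors' scaling, so the read depth of each library is unknown here. Of 17 markers of stellate cells and fibroblasts, 15 had a mean of at least 10, while DES and LRAT were below 1. Their summed level was 385271 to 426379 in siCTL and 291110 to 314666 in siADAMTS12, but COL1A1, COL1A2 and COL3A1 are among them. The 14 markers that are not collagens summed to 246969 to 278277 and then to 179754 to 182088, also without overlap. VIM made up most of this sum, at 192482 to 212010 in siCTL and 130409 to 142753 in siADAMTS12. PDGFRB, THY1, NGFR, TAGLN, TIMP1 and LUM were also lower in every siADAMTS12 library. LHX2 was higher in every siADAMTS12 library, and ACTA2, DCN, RGS5 and HAND2 overlapped. Among other cell types, 2 of 10 hepatocyte, 2 of 6 cholangiocyte or epithelial, 3 of 8 endothelial and 1 of 8 macrophage or leukocyte markers reached a mean of 10, and ALB, APOB, CDH1 and STAB2 were below 1. The summed endothelial markers went from 763 to 892 in siCTL to 446 to 537 in siADAMTS12, and the hepatocyte markers from 1961 to 2052 to 2386 to 2827. Each of these sums was mostly a single gene. TIE1 was at 624 to 735 and then at 369 to 458, and CPS1 at 1941 to 2032 and then at 2363 to 2798. The part of these shifts in the collagen results was not tested.

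LX-2 cells expressed most of the collagen family, and with siADAMTS12 the expressed chains of types V and VI, COL8A1, COL12A1 and the membrane collagens COL13A1 and COL25A1 were called lower, while the abundant chains of types I, III and IV (COL1A1, COL1A2, COL3A1, COL4A1 and COL4A2) were not called. A difference between types was not tested, and COL5A1 (log2 fold change -0.22, called) changed no more than COL1A2 (-0.26, not called). The calls of COL5A1, COL6A1 and COL6A2 were lost under other scalings. A fit with a term for replicate number called COL1A1, COL1A2 and COL3A1 lower. Of the 44 chains, 28 had a mean of at least 10 and were tested, all 28 with at least that mean in each group. Of these 28, 12 fell, 1 rose and 15 were not called. Among all genes tested, 15.5% fell and 11.5% rose, 27.0% in either direction. The largest falls were those of COL6A3 and COL5A3, to 45.0% and 45.1% of siCTL, and the single rise was that of COL27A1, to 144% of siCTL. The median log2 fold change of the 28 chains was -0.30, against 0.005 over all genes tested, and 23 of 28 were below 0, against 49.1% of all genes. In 12 of the 28 chains every siADAMTS12 library lay below every siCTL library (21.7% of all genes) and in 1 every library lay above (19.2%). In bulk RNA, fewer cells making a transcript and less of it per cell cannot be told apart.

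**Figure D1:**
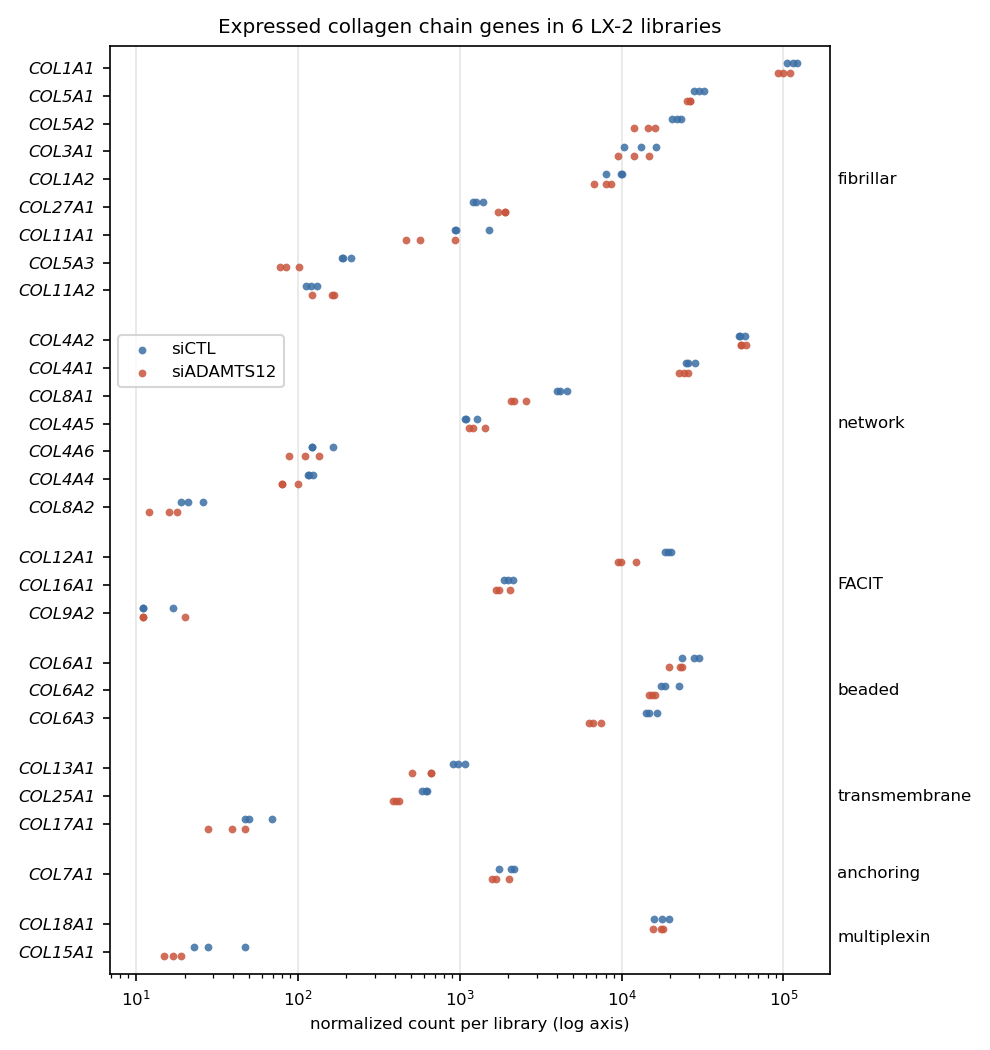
Normalized counts (log axis) of the 28 expressed collagen chain genes in each of the 3 siCTL and 3 siADAMTS12 libraries, grouped by class. COL1A1 is the highest chain and COL9A2 the lowest. COL12A1, COL6A3, COL8A1, COL5A2, COL5A3, COL13A1 and COL25A1 are lower in every siADAMTS12 library than in any siCTL library, and COL27A1 is higher.

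Of the 13 calls 8, namely COL12A1, COL13A1, COL25A1, COL27A1, COL5A2, COL5A3, COL6A3 and COL8A1, held under all 15 alternatives of scaling, filter, pseudocount, model and left-out library. The other 5, COL11A1, COL4A4, COL5A1, COL6A1 and COL6A2, each lost the threshold under at least 1 of them. COL5A1, COL6A1 and COL6A2 lost it both with equal column sums and after quantile normalization, where COL5A1 stood at 0.03. Scaling the columns to equal sums moved the median of all genes up by 0.124 on the log2 scale and turned the balance of calls from 1798 higher and 2424 lower to 3869 higher and 1546 lower. Under that scaling 8 collagen chains fell and 1 rose.

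**Figure D2:**
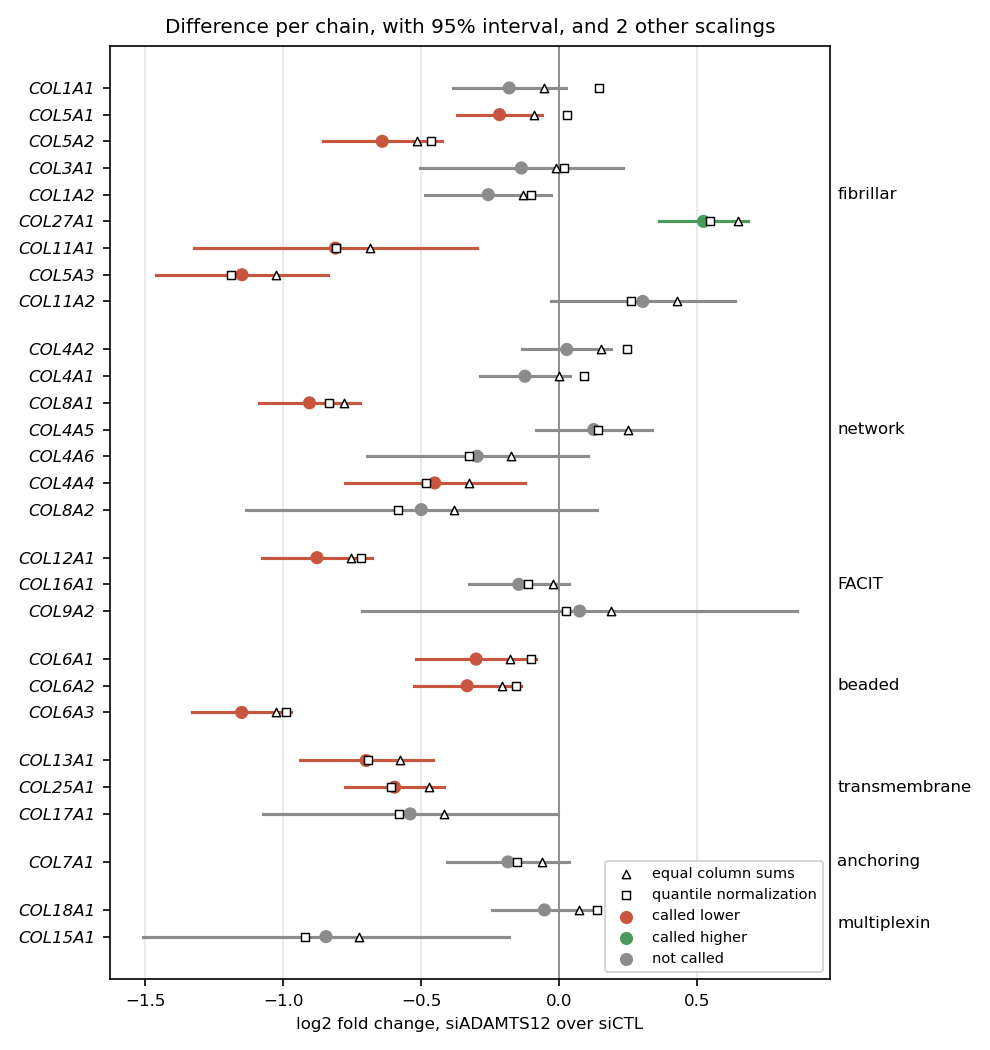
Log2 fold change of each expressed chain (filled points) with its 95% interval from limma, coloured by call, and the same value after scaling to equal column sums (triangles) or quantile normalization (squares). COL6A3, COL5A3, COL8A1 and COL12A1 stay below -0.7 under all 3 scalings, whereas COL5A1 moves from -0.22 to 0.03 after quantile normalization and COL1A1, COL3A1, COL4A1 and COL18A1, none of them called, change sign under at least 1 scaling.

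Among the fibrillar collagens, type V chains fell, type I and III chains were not called, and COL27A1 rose. Of 11 chains 9 were expressed, of which 4 fell (COL5A1, COL5A2, COL5A3 and COL11A1), 1 rose and 4 were not called, with a median log2 fold change of -0.22. COL1A1 (chromosome 17, 50183289 to 50201632, minus strand) was the most abundant chain in the cells, the 13th highest of all genes tested in siCTL and 29.8% of all collagen counts there. It was at 115244, 121851 and 105767 in siCTL and at 99634, 110152 and 92869 in siADAMTS12, and the groups overlapped. Its log2 fold change was -0.18 (95% interval -0.39 to 0.02, limma adjusted p = 0.177). COL1A2, the partner chain of type I, was at 9858, 10016 and 7989 and then at 8021, 8583 and 6711. Its groups overlapped too, with a log2 fold change of -0.26 (95% interval -0.49 to -0.03, limma adjusted p = 0.0907). COL3A1, whose protein co-assembles with type I in scars, was at 13200, 16235 and 10370 in siCTL and at 12006, 14745 and 9442 in siADAMTS12. The spread among replicates exceeded the difference between groups (log2 fold change -0.14, 95% interval -0.50 to 0.23, limma adjusted p = 0.593).

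Same-numbered libraries of these 3 chains moved together. Replicate 2 was highest and replicate 3 lowest in both groups for COL1A1, COL1A2 and COL3A1. Taken within a number, the log2 differences of COL3A1 were -0.14, -0.14 and -0.14, those of COL1A1 -0.21, -0.15 and -0.19, and those of COL1A2 -0.30, -0.22 and -0.25. With the replicate number as a block, limma called all 3 lower (adjusted p = 0.0259 for COL1A1, 0.00215 for COL1A2 and 0.0377 for COL3A1), in a fit that called 19.6% of all genes lower. After quantile normalization the blocked fit called none of them (0.0740, 0.0968 and 0.779), and COL1A1 and COL3A1 then stood at 0.14 and 0.02 on the log2 scale, above 0. The calls of these 3 chains thus depended on the pairing and on the scaling.

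**Figure D3:**
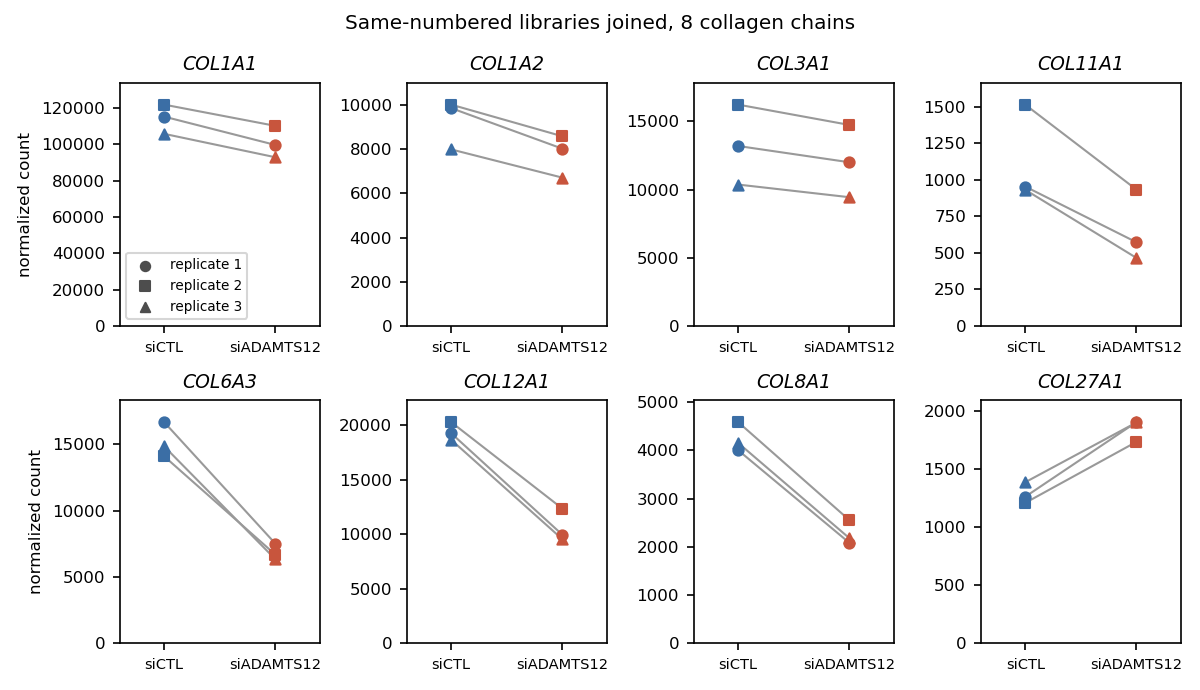
Normalized counts (axes from 0) of 8 chains in siCTL and siADAMTS12 libraries, with libraries of the same replicate number joined by a line and marked by shape. The lines of COL1A1, COL1A2 and COL3A1 run parallel with a small slope, those of COL11A1, COL6A3, COL12A1 and COL8A1 fall steeply in all 3 pairs, and those of COL27A1 rise in all 3.

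Type V collagen sets the diameter of type I fibrils, and the log2 fold changes of its chains ran from -0.22 to -1.15. COL5A2 (chromosome 2, 189031896 to 189225312, minus strand) was at 22141, 23165 and 20532 in siCTL and at 14479, 16027 and 11953 in siADAMTS12. Every siADAMTS12 library was below every siCTL library, a 1.56-fold fall (log2 fold change -0.64 ± 0.10 SE, limma adjusted p = 0.000575). COL5A1, the chain common to all type V molecules, was at 30076, 32500 and 28164 and then at 26317, 26354 and 25314. The groups did not overlap, but the fall was 1.16-fold (-0.22 ± 0.07 SE, limma adjusted p = 0.0410), was lost when any library but siCTL replicate 3 was left out (0.0580 to 0.142) and turned to 0.03 after quantile normalization (0.815). COL5A3, a scarcer chain (chromosome 19, 9959561 to 10010471, minus strand), was at 187, 212 and 190 in siCTL and at 102, 85 and 78 in siADAMTS12. The groups stood well apart, a 2.22-fold fall (-1.15 ± 0.14 SE, limma adjusted p = 0.000121).

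The remaining fibrillar chains were scarcer. COL11A1, a minor fibril chain that resembles COL5A1, was at 953, 1513 and 931 in siCTL and at 572, 932 and 465 in siADAMTS12. The second library was the highest in both groups, and the groups just overlapped at 931 and 932. Its log2 fold change was -0.81 ± 0.23 SE (limma adjusted p = 0.0241), with 4.58e-05 in the blocked fit. It was not called without siCTL replicate 2 (0.0998), siADAMTS12 replicate 1 (0.0562) or siADAMTS12 replicate 3 (0.0934). Without the intensity trend of limma it was not called either (0.12). COL27A1, a fibrillar chain known from cartilage (chromosome 9, 114155560 to 114312511, plus strand), was at 1263, 1210 and 1388 and then at 1906, 1736 and 1903. All 3 siADAMTS12 libraries were above all siCTL libraries, a 1.44-fold rise (0.52 ± 0.07 SE, limma adjusted p = 0.000302). COL11A2 lay at 112 to 131 in siCTL and 122 to 167 in siADAMTS12 and was not called (0.30, limma adjusted p = 0.166). It was called higher without siADAMTS12 replicate 2 (0.0405). COL24A1 (mean 8.33) and the cartilage chain COL2A1 (mean 5.83) were below the minimum.

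Among the network collagens COL8A1 fell by the most, and the abundant type IV chains were not called. Of 9 chains 7 were expressed, 2 fell (COL8A1 and COL4A4), none rose and 5 were not called, with a median log2 fold change of -0.30. COL4A2 and COL4A1, the chains of the common basement membrane molecule, were the second and the fifth most abundant collagen transcripts in siCTL by normalized count. COL4A2 (chromosome 13, 110305812 to 110513209, plus strand) was at 52988, 58128 and 53544 in siCTL and at 54474, 58438 and 54847 in siADAMTS12, overlapping throughout (log2 fold change 0.03, 95% interval -0.13 to 0.19, limma adjusted p = 0.824). It was called higher after quantile normalization (0.25, limma adjusted p = 0.0337). COL4A1 (chromosome 13, 110148963 to 110307233, minus strand) was at 25624, 28272 and 25186 and then at 24198, 25846 and 22533. Its groups overlapped as well (-0.12, 95% interval -0.29 to 0.04, limma adjusted p = 0.248).

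COL8A1 encodes a short network chain found in vessel walls and fibrotic tissue (chromosome 3, 99638475 to 99799226, plus strand). It was at 4000, 4582 and 4151 in siCTL and at 2082, 2552 and 2178 in siADAMTS12. No siADAMTS12 library came near the siCTL range, a 1.87-fold fall (log2 fold change -0.91 ± 0.08 SE, limma adjusted p = 1.36e-05). COL8A2, its partner, lay near the minimum, at 21, 19 and 26 and then at 16, 18 and 12, and was not called (-0.50, limma adjusted p = 0.230). COL4A4, a chain of specialised basement membranes, was at 115, 117 and 124 and then at 101, 80 and 80. The groups did not overlap (-0.45 ± 0.15 SE, limma adjusted p = 0.0434), but the call was lost without any library other than siADAMTS12 replicate 1 (0.0826 to 0.139). COL4A5 and COL4A6, which share a molecule in smooth muscle basement membranes, averaged 1156 and 136 in siCTL and 1262 and 111 in siADAMTS12 and were not called (0.13 and -0.30). COL4A3 had a mean of 2.50, and COL10A1 was listed at 0 in all 6 libraries.

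Among FACIT collagens the result was that of COL12A1, which binds type I fibrils and is abundant in stretched tissues. Only 3 of 10 chains were expressed, 1 fell, none rose and 2 were not called. COL12A1 (chromosome 6, 75084326 to 75206051, minus strand) was at 19285, 20304 and 18683 in siCTL and at 9965, 12367 and 9558 in siADAMTS12. The groups were far apart, a 1.84-fold fall (log2 fold change -0.88 ± 0.09 SE, limma adjusted p = 3.36e-05). COL16A1, a FACIT chain of skin and muscle matrix, lay at 1889 to 2145 and then at 1681 to 2040, with overlapping groups (-0.15, limma adjusted p = 0.217). COL9A2, just above the minimum with a mean of 13.5, did not differ detectably at its level of 11 to 20 (0.07, 95% interval -0.71 to 0.86). The other FACIT chains COL14A1, COL20A1, COL9A3, COL21A1 and COL9A1 had means of 0.17 to 5.67, and COL19A1 and COL22A1 were listed at 0.

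All 3 expressed beaded chains fell, with log2 fold changes from -0.30 to -1.15. They form type VI collagen, and the remaining 4 chains of the class were below the minimum, COL6A6 just outside it with a mean of 9.83, COL26A1 and COL28A1 at 0.67 each and COL6A5 listed at 0. COL6A3 (chromosome 2, 237324003 to 237414375, minus strand), the largest type VI chain and the source of the fragment endotrophin, was at 16656, 14085 and 14833 in siCTL and at 7507, 6683 and 6331 in siADAMTS12. Even the lowest siCTL library was far above the highest siADAMTS12 library, a 2.22-fold fall (log2 fold change -1.15 ± 0.08 SE, limma adjusted p = 1.86e-06). COL6A1 (chromosome 21, 45981737 to 46005050, plus strand) was at 23578, 30150 and 28221 and then at 19662, 23606 and 23100, and the groups overlapped by a narrow margin. Its fall was 1.23-fold (-0.30 ± 0.10 SE, limma adjusted p = 0.0439). COL6A2 was at 17603, 22565 and 18535 and then at 14865, 15462 and 16004, with no overlap (1.26-fold, -0.33 ± 0.09 SE, limma adjusted p = 0.0159). After scaling to equal column sums neither passed (adjusted p = 0.185 and 0.0933), nor after quantile normalization (0.484 and 0.229), and COL6A1 was also lost without siCTL replicate 2 or 3 or siADAMTS12 replicate 1 or 3 (0.0662 to 0.158).

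The transmembrane collagens COL13A1 and COL25A1, both scarce, fell. Of 4 chains 3 were expressed, 2 fell, none rose and 1 was not called. COL13A1, a cell surface collagen of adhesion sites and neuromuscular junctions, was at 977, 910 and 1079 in siCTL and at 663, 509 and 662 in siADAMTS12. COL25A1, known for its shed fragment in amyloid plaques, was at 589, 622 and 632 and then at 425, 386 and 407. Neither pair of groups overlapped, with falls of 1.62-fold (log2 fold change -0.70 ± 0.11 SE, limma adjusted p = 0.000698) and 1.51-fold (-0.60 ± 0.08 SE, limma adjusted p = 0.000262). COL17A1, the hemidesmosome collagen of epithelia, lay at 47 to 69 and then at 28 to 47 and was not called (-0.54, limma adjusted p = 0.125), and COL23A1 had a mean of 0.17.

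The anchoring and multiplexin classes held 3 expressed chains, none of them called. COL7A1, the anchoring fibril chain, was at 2162, 2069 and 1762 in siCTL and at 2015, 1685 and 1577 in siADAMTS12, with overlapping groups (log2 fold change -0.19, limma adjusted p = 0.198). In the blocked fit it was called lower (0.0320), though not after quantile normalization as well (0.0644), and it was called without siADAMTS12 replicate 1 (0.0460). COL18A1, the multiplexin that yields endostatin, was at 17652, 19755 and 15821 and then at 18020, 15631 and 17522. Its groups overlapped fully (-0.05, 95% interval -0.25 to 0.14, limma adjusted p = 0.700). An exon of COL18A1 overlaps SLC19A1 on the opposite strand (mean 2933), and whether the counting used strand is not given in the sources used here. COL15A1, the other multiplexin, was at 23, 28 and 47 and then at 19, 17 and 15. The groups did not overlap at this low level (-0.85 ± 0.30 SE, limma adjusted p = 0.0597), and it was called without siCTL replicate 1 (0.0388) and after quantile normalization (0.0457).

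Compared per kilobase of a single annotated transcript, which puts chains of unequal length on a common scale, the siCTL level of COL1A1 was 16990 per kb. COL4A2 followed at 8452, COL6A1 at 6446, COL6A2 at 5654, COL4A1 at 3984, COL5A1 at 3571 and COL5A2 at 3099. COL6A3 and COL12A1, encoded by long transcripts, were at 1413 and 1657 per kb, and COL1A2 at 1716 was far below its partner. The 44 chains together held 1.14% ± 0.0828 of all normalized counts in siCTL and 1.05% ± 0.0494 in siADAMTS12 (SD, n = 3), and a 2-sided exact permutation test gave p = 0.2. The difference of -0.090 percentage points became -0.046 without siCTL replicate 2. Without COL1A1 the share was 0.798% ± 0.0578 and then 0.721% ± 0.0254 (SD, n = 3; exact permutation p = 0.1). Summed in the authors' scaling, the collagen counts were 378016, 411751 and 361317 in siCTL and 320899, 345093 and 306812 in siADAMTS12, without overlap (exact permutation p = 0.1). Within the collagen counts, the fibrillar class held 49.98% in siCTL and 50.46% in siADAMTS12, the network class 22.7% and 25.9%, the beaded class 16.2% and 13.7%, and the FACIT class 5.59% and 3.85%. The summed counts of the FACIT, beaded and transmembrane classes were lower in all siADAMTS12 libraries than in any siCTL library (2-sided exact permutation p = 0.1 each), whereas the fibrillar and network sums overlapped (p = 0.2 and 0.5, exact).

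Chains that assemble into the same molecule were compared as ratios, which do not depend on how a library is scaled. Of 6 ratios, 3 did not overlap between groups. COL6A3 relative to COL6A1 was 0.706, 0.467 and 0.526 in siCTL and 0.382, 0.283 and 0.274 in siADAMTS12, a 1.80-fold lower ratio. COL5A1 relative to COL5A2 was 1.358, 1.403 and 1.372 and then 1.818, 1.644 and 2.118, a 1.34-fold higher ratio. COL4A1 relative to COL4A2 was 0.484, 0.486 and 0.470 and then 0.444, 0.442 and 0.411, a shift of 1.11-fold. For these 3 a 2-sided exact permutation test gave p = 0.1, which 3 libraries against 3 cannot go below, and 0.2 after Benjamini-Hochberg adjustment over the 6 ratios, so the design cannot place them below 0.05. COL1A1 relative to COL1A2 (12.37 ± 0.793 and 13.03 ± 0.729), COL6A1 relative to COL6A2 (1.399 ± 0.107 and 1.431 ± 0.103) and COL8A1 relative to COL8A2 (197 ± 41.2 and 151 ± 26.9) overlapped (SD, n = 3; exact permutation p = 0.4, 0.9 and 0.2). No ratio therefore passed a test, and the values of COL6A3, COL5A2 and COL4A1 against their partners are given as descriptions.

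**Figure D4:**
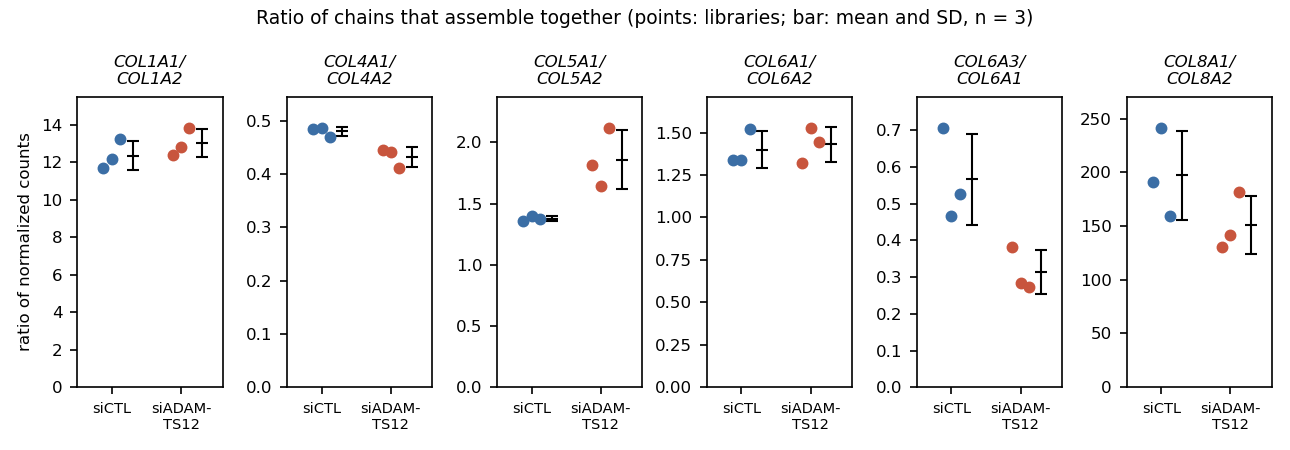
Ratio of the normalized counts of chains that assemble together, in each library (points), with the mean and SD of 3 libraries beside them, axes from 0. COL6A3 relative to COL6A1 and COL4A1 relative to COL4A2 are lower in all siADAMTS12 libraries and COL5A1 relative to COL5A2 is higher, while the other 3 ratios overlap.

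Several collagen genes lie next to each other, and neighbours did not always share a call in the main fit. COL3A1 and COL5A2 are arranged tail to tail on chromosome 2, 19149 bp apart, with log2 fold changes of -0.14 (not called) and -0.64 (lower). In the blocked fit both were called lower (limma adjusted p = 0.0377 and 3.28e-05). COL4A3 and COL4A4 diverge on chromosome 2, with 112 bp between their starts. COL4A4 was called lower at -0.45, and COL4A3 was below the minimum and not tested. COL6A1 and COL6A2 follow each other in the same direction on chromosome 21, 93046 bp apart, and were both called lower, at -0.30 and -0.33. COL4A1 and COL4A2 diverge from a shared region on chromosome 13, with neither called. COL4A5 and COL4A6 diverge on the X chromosome, with 347 bp between their starts, at 0.13 and -0.30, neither called.

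The 3' UTRs of the chains differed in whether they held the match to the siRNA seed. GAGGGAA, the complement of guide positions 2 to 8, was found in 8 of the 28 expressed chains (28.6%) and in 15.6% of the 12606 expressed genes whose 3' UTR was searched. Of the 8, 4 fell (COL12A1, COL6A3, COL5A3 and COL5A1), COL27A1 rose, and COL1A1, COL1A2 and COL17A1 were not called. Of these 8, the sites of the 3 chains that fell most, of COL27A1 and of the type I chains are shown, each with up to 10 bases on either side and the match in capitals, from GENCODE 29 transcripts on GRCh38.
COL12A1, chr6:75084741-75084767, minus strand: aaccaaaaagGAGGGAAacgtcaactc
COL12A1, chr6:75084524-75084550, minus strand: attctgcagaGAGGGAAttgcatgttt
COL6A3, chr2:237324624-237324650, minus strand: tcgaactcggGAGGGAAcatcctgctg
COL5A3, chr19:9959890-9959916, minus strand: tcggactacaGAGGGAAgagggacttc
COL27A1, chr9:114310721-114310747, plus strand: cctcacggagGAGGGAAgaggaagagg
COL27A1, chr9:114311028-114311054, plus strand: aagccaacttGAGGGAAgggggcgtct
COL1A1, chr17:50184574-50184600, minus strand: gtggggtgggGAGGGAAtcactggtgc
COL1A2, chr7:94430724-94430750, plus strand: atcttccacaGAGGGAAgtttaaaacc

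COL12A1 and COL17A1 were the chains with an A after the 7-mer, the longer match GAGGGAAA, and they stood at -0.88 (lower) and -0.54 (not called). COL27A1 held 2 sites and was the chain that rose. COL11A1, COL4A4 and COL11A2 held only AGGGAA, the match to positions 2 to 7. The other 17 expressed chains held neither, and 6 of them (35.3%) fell, COL8A1, COL5A2, COL13A1 and COL25A1 among them. The median log2 fold change was -0.40 in the 8 chains with the 7-mer and -0.30 in the 17 without any match. Over all genes searched the medians were -0.14 in 1970 genes with the 7-mer, of which 35.9% fell, and 0.02 in 7393 without any match, of which 890 fell. The part of the seed match in the fall of any collagen chain was not tested, and a match in a single annotated 3' UTR is a description of its letters.

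Genes that make, export, bind and cut collagen were counted in 6 lists of 78 genes. Of these 73 were tested, 30 fell and 3 rose, where 15.5% of all genes fell and 11.5% rose. With equal column sums 20 fell and 5 rose, a scaling under which 1546 of all genes fell and 3869 rose. Of the genes that fell, COLGALT2, P4HA1, FKBP10, CRTAP, SERPINH1, KLHL12, ADAMTS14, DDR2, MMP16 and SMAD2 held GAGGGAA in the 3' UTR. P4HA3, BMP1, PCOLCE2 and ITGA1 held it and were not called. PLOD1, P4HA2, P4HB, P3H2, PPIB, SEC24D, SEC23A, SEC13, CREB3L1, CREB3L2, TLL1, ADAMTS3, LOXL4, ITGA2, ITGA11, ITGB1, MMP9, MMP14, CTSL and FLI1 fell without it. Among all genes searched, 15.6% held it. The part of the match in these falls was not tested. Among 18 enzymes and chaperones that fold and modify the chains, 10 fell and 1 rose (median log2 fold change -0.29). COLGALT2, which adds galactose to hydroxylysine, went from 402 ± 17.4 to 158 ± 11.1 (SD, n = 3; -1.34). The lysyl hydroxylase PLOD1 went from 8717 ± 288 to 5896 ± 342 (-0.57), the catalytic prolyl hydroxylase subunit P4HA1 was at -0.52 and the isomerase FKBP10 at -0.31. PLOD2, the lysyl hydroxylase of collagen telopeptides, was the gene that rose (0.28). Among 11 genes of procollagen export, 6 fell and none rose (median -0.22). SEC24D, a cargo adaptor of the COPII coat that procollagen needs, went from 3628 ± 235 to 1743 ± 124 (-1.06 ± 0.07 SE, limma adjusted p = 1.61e-06), and KLHL12, which enlarges COPII carriers, the transcription factor CREB3L2 and the coat subunit SEC23A were at -0.61, -0.38 and -0.33.

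Of the 12 tested genes for procollagen trimming and crosslinking, 4 fell and none rose (median -0.12), the trimming proteases TLL1 (1159 ± 75.6 to 614 ± 45.2; -0.92), ADAMTS3 (-0.62) and ADAMTS14 (-0.77) and the crosslinking enzyme LOXL4 (-0.56). The call of ADAMTS14 held under 8 of 15 alternatives (-0.50, limma adjusted p = 0.106 without siADAMTS12 replicate 3) and that of LOXL4 under 14 (0.0573 without siCTL replicate 2). Of 8 tested collagen receptors, 4 fell and none rose (median -0.21). ITGA2, the integrin subunit that binds type I collagen, went from 3306 ± 584 to 810 ± 160 (-2.03 ± 0.15 SE, limma adjusted p = 2.65e-06), ITGA11, a fibroblast collagen receptor, from 361 ± 47.4 to 159 ± 10.2 (-1.17), their common partner ITGB1 was at -0.77, and the receptor kinase DDR2 at -0.29. Of 9 tested proteases that degrade collagen, 4 fell and none rose (median -0.41), with MMP9 from 215 ± 1.00 to 58.7 ± 13.9 (-1.88), the membrane collagenase MMP14 from 5755 ± 345 to 3991 ± 72.7 (-0.53), the cathepsin CTSL at -0.41 and MMP16 at -0.46. DDR2 was not called with equal column sums (0.0593), and the call of MMP16 held under 10 of 15 alternatives, with adjusted p up to 0.0723 (without siCTL replicate 1). Of 15 transcription factors and binding proteins of collagen genes, 2 fell and 2 rose (median -0.04), shares near those of all genes. SMAD3, which carries TGF-beta signals to collagen promoters, rose from 5548 ± 212 to 7607 ± 175 (0.46) and the tendon factor SCX from 39.0 ± 6.0 to 69.0 ± 24.6 (0.76), while SMAD2 and FLI1 were at -0.29 and -0.33 (both lower). The call of SCX held under 7 of 15 alternatives (0.49, limma adjusted p = 0.185 without siADAMTS12 replicate 3), that of FLI1 under 10 (-0.20, 0.113 with equal column sums) and that of SMAD2 under 14 (0.0564 with equal column sums). Leaving out a single library ended the call of ADAMTS14 for any siCTL replicate and siADAMTS12 replicate 3, of SCX for any library but siADAMTS12 replicate 2, of FLI1 for siCTL replicate 3 and siADAMTS12 replicates 1 and 3, and of MMP16 for siCTL replicate 1 and siADAMTS12 replicates 2 and 3.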

How the data were processed

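Poly(A) RNA of LX-2 cells was sequenced in 3 siCTL and 3 siADAMTS12 libraries. Per the submitters' processing notes, STAR, HTSeq, DESeq2 and GRCh38 were used; no versions are given, nor the gene annotation or whether counting was strand-specific. Each deposited value is a score, a whole-number count that the authors had normalized, per the label of the table. Median-of-ratios factors of the 6 columns lay between 0.997 and 1.006. No count model was fitted to them.

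Genes with a mean of at least 10 were analysed as log2(value + 1), which understates changes of low genes. limma 3.58.1 in R 4.3.3 (lmFit, eBayes with an intensity trend) was fitted to 15637 genes with group as the only term, with Benjamini-Hochberg adjustment and a threshold of 0.05. Ratios and shares were compared by exact 2-sided permutation. The fit was also run on simulated counts, in which 4.67% of the calls were false. That simulation changed few genes and used a single dispersion and no effect of replicate number. It therefore does not measure the error of the calls in these data. Annotation and 3' UTRs came from GENCODE 29 (GRCh38), to which all 44 collagen IDs matched, using the APPRIS principal, basic transcript with the longest 3' UTR, of at least 30 bases. Python 3.11.15, pandas 2.3.3, numpy 2.4.6 and matplotlib 3.10.9 were used.

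Every expressed chain is named. Values in all libraries are given for called chains with a mean of at least 50, the most abundant chain of each class and the chains of each ratio, and some others. Of each related list up to 4 called genes with the smallest adjusted p are named with their values. PLOD2 falls outside this rule and was chosen after its values were seen. The related genes listed by seed match also go beyond this rule. The members and lists were chosen with earlier results of these data known. Same-numbered libraries deviated together across the genes tested (r = 0.367, 0.135 and 0.133 for replicates 1, 2 and 3, against -0.193 to 0.063 for different numbers), each above the 0.1 set for this check, so limma was also run with a term for replicate number (the replicate block). Across the 28 expressed collagens alone, r was 0.445, 0.413 and 0.006 for replicates 1, 2 and 3, against -0.481 to 0.315 for different numbers. Replicate 3 was thus below 0.1 for these genes. The pairing comes from the numbers in the labels, which do not say what they share. Alternatives covered the pseudocount, low-value filter, scaling, variance trend, replicate block and leaving out each library.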

Additional observations from a re-analysis of the deposited data

How the results depend on the processing

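The 15 alternatives gave 416 values for the 28 expressed chains, of which 351 kept their direction and their side of the threshold. Without a change of sign, 32 lost a call and 13 gained one. The other 20 changed sign, and among them COL5A1 also lost its call after quantile normalization, with or without the replicate block. The fall count of 12 became 8 with equal column sums or without the intensity trend, 9 without a filter, 10 after quantile normalization, 16 with the replicate block, and 8 to 11 without 1 library. Over all genes the fall count of 2424 became 1546 with equal column sums, 1942 without the intensity trend and 2119 without a filter. It became 2078 after quantile normalization, 3059 with the replicate block and 1872 to 2364 without 1 library. The rise count of 1 became 2 after quantile normalization, with or without the replicate block (COL4A2), and was 1 to 2 without 1 library (2 without siADAMTS12 replicate 2, with COL11A2). Over all genes the rise count of 1798 became 2175 after quantile normalization and 1623 without siADAMTS12 replicate 2. Beyond the chains named with their blocked values, the replicate block changed no collagen call. Of the related genes, 5 rose with equal column sums and 5 with the block after quantile normalization, an alternative chosen after seeing the data. Over all genes, that last setting called 2920 higher and 2589 lower.

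Sign changes concerned chains that were not called, and COL5A1. With equal column sums the log2 fold change of COL18A1 was 0.071 and that of COL4A1 0.00. After quantile normalization, with or without the block, COL1A1 was at 0.14, COL5A1 at 0.027, COL3A1 at 0.018, COL18A1 at 0.14 and COL4A1 at 0.09. Without 1 library, COL3A1 ranged from -0.303 to 0.028, COL18A1 from -0.133 to 0.027, COL4A2 from -0.005 to 0.069 and COL9A2 from -0.195 to 0.269. The COL6A1 to COL6A2 log2 ratio ranged from -0.016 to 0.095 (replicate block 0.032, exact p = 1). The cause of these changes was not tested. COL1A2 was called without siCTL replicate 3 (limma adjusted p = 0.0290) or siADAMTS12 replicate 2 (0.0436). Levels near the minimum, as in COL9A2, COL8A2 and COL15A1, limit what could be detected there.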
